A study of Rattus norvegicus with 6 samples.

Results

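Interferon-related transcripts were followed in a mast cell model, the rat basophilic leukaemia line RBL-2H3. The set comprised 35 named genes: 8 interferon regulatory factors (IRFs), 6 interferon receptor chains or receptor-proximal signalling genes, 2 cytoplasmic RNA sensors and 19 genes known as interferon-induced effectors. They were listed by name, and each was represented by the probe set that the annotation ties to that symbol alone, the brightest where there were several. Of the 35 genes, 32 were measured, out of 14506 genes with such a probe set, and each of the 32 had a single one. Signals of Ifnar2, Tyk2 and Parp14 were not analysed here.

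Every array came from cells of that line stably overexpressing Dectin-1 WT, a receptor for beta-glucans, so the controls carried the receptor too. There were 3 groups of 2 arrays: control cells with no stimulus, cells given Curdlan (a beta-glucan in particles), and cells pretreated with the Syk inhibitor R406 and then stimulated with Curdlan. The sources used here give neither doses nor times, nor whether the line is 1 clone, and no group received R406 without curdlan. Hence an effect of R406 on the curdlan response and an effect of R406 on resting cells cannot be told apart. Separate cultures are not named for the paired arrays of a group, so the p-values rest on an array-to-array spread that may be technical only.

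In this pathway, type I interferons signal through the receptor chains Ifnar1 and Ifnar2, and interferon gamma through Ifngr1 and Ifngr2. Receptor-bound JAK kinases such as Tyk2 phosphorylate STAT proteins. A complex that holds Stat2 and Irf9 then binds the interferon-stimulated response element (ISRE), whereas the gamma-activated sequence (GAS) is an element of genes that respond to interferon gamma. IRF proteins share a DNA-binding domain and either relay virus sensing (Irf3, Irf7), act in immune cell differentiation (Irf4, Irf8), or activate and restrain ISRE-bearing genes (Irf1 and Irf2, respectively). In immune cells Dectin-1 signals through Syk to NF-kB, NFAT and MAP kinases, and in dendritic cells it is also known to engage IRF factors.

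Sequences upstream of some of these genes are shown first, because the elements named above differ among them. RefSeq windows of the rat assembly GRCr8 were matched by symbol for 26 of the 35 genes, and the 250 bases before the transcript start were searched on both strands. The motifs were the ISRE core AAANNGAAA, the GAS element TTCNNNGAA, the NF-kB consensus (10 bases with ambiguous positions), AP-1 as TGANTCA, the CRE core TGACG and the NFAT core GGAAA. In 15 of the 26 windows some bases lay inside the annotated span of the gene, and the windows printed here are 6 of the 11 that did not. The first 3 belong to genes that were called in the comparisons, and the last 3 to effector genes that hold an ISRE core and were not called. Capitals mark matches to the ISRE core, GAS, NF-kB or AP-1 motifs, and each sequence runs 5′ to 3′ on the strand of the gene.
Irf1, chr10:38417685-38417934, plus strand: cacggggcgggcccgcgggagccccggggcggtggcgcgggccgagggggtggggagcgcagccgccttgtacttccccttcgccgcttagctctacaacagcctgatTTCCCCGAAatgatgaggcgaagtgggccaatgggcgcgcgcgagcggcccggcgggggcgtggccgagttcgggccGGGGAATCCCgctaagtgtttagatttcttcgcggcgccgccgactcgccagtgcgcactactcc
Ifngr2, chr11:44265453-44265702, plus strand: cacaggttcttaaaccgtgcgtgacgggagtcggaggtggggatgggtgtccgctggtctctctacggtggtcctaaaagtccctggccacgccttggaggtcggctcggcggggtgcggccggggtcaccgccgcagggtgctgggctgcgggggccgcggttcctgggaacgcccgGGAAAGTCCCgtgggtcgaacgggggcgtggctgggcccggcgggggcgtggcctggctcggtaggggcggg
Ifnar1, chr11:44211519-44211768, plus strand: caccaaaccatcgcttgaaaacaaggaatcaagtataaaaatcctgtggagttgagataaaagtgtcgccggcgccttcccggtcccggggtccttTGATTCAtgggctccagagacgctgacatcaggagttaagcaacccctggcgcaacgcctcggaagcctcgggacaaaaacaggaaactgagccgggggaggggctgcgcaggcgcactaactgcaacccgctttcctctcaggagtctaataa
Ifit3, chr1:241527076-241527325, plus strand: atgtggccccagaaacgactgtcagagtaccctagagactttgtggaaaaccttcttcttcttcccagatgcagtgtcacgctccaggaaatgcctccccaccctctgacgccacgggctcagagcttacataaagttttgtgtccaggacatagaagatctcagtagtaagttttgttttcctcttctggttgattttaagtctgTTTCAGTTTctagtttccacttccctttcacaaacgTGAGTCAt
Gbp2, chr2:234005477-234005726, plus strand: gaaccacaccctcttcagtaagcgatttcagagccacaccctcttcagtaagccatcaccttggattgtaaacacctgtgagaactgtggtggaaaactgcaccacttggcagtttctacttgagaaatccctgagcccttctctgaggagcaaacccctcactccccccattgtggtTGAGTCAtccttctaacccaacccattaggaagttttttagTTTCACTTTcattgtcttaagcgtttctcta
Ifi27, chr6:128355062-128355311, plus strand: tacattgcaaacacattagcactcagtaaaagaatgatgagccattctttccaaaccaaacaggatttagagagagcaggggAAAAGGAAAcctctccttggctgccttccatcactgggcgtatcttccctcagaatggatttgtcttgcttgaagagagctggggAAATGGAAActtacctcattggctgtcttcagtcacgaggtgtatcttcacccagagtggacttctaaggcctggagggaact

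The Irf1 window held a GAS element, TTCCCCGAA, beginning 142 bases before the start, and an NF-kB match, GGGGAATCCC, beginning 65 bases before it. The Ifngr2 window held an NF-kB match 72 bases before the start, and the Ifnar1 window an AP-1 match 154 bases before it. For Oasl an NF-kB match lay 165 bases before the start of the transcript used, inside the annotated span of the gene, and is shown in capitals with 10 bases on either side because Oasl was called higher with curdlan and lower under R406.
Oasl, chr12:47356438-47356467, minus strand: tctccaaggtGGGGACCCCCatagagtctt

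Over the 26 windows the ISRE core was found in 12, against 10.3% of all 33469 windows in the table. The GAS element was found in 7, against 7.67% of all windows, and the NF-kB consensus in 4 (Irf1, Irf3, Ifngr2 and Oasl), against 3.54%. AP-1 was found in 4 (6.34% of all windows), the CRE core in 7 (18.2%) and the NFAT core in 19 (56.9%). In Oas1a and in Bst2 a pair of ISRE cores overlapped each other. A match is a match of letters and was not tested as a binding site.

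Values are log2 signals as deposited, and a change is the difference between group means, with its standard error (SE), from 1 limma fit to all 6 arrays. Genes were called where the adjusted p (Benjamini-Hochberg, across all 29214 probe sets) was under 0.05. Array medians lay between 7.204 and 7.241. Of 15 measured mast cell markers, 12 had a mean signal above the median probe set and 0 were called in any comparison (limma; 4, 3 and 3 had an unadjusted p under 0.05 in the 3 comparisons). Of all genes 10.0% were called in at least 1 comparison. Tpsab1, Tpsb2 and Mcpt4 were the 3 below the median probe set. Of 9 lymphocyte markers 8, of 12 macrophage and neutrophil markers 10, of 5 dendritic cell markers 3 and of 10 fibroblast and epithelial markers 6 were below it, and the 1 call among these was Itgam, lower under R406 by 0.36 log2 units. Syk itself had signals of 9.17 and 9.12 in control, 9.01 and 9.03 in curdlan and 9.09 and 9.09 in R406 plus curdlan arrays.

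With curdlan, 3 of the 32 genes rose and 0 fell: Irf1, Irf4 and Oasl, each by about the same amount on the log2 scale. That is 9.38% of the members. Of all probe sets 1.59% were called (1.04% higher and 0.551% lower), and of all genes, taken by their brightest probe set, 2.13%. Their changes were between 0.50 and 0.52 log2 units, and 10 members (of all probe sets 14.4%) had an unadjusted p under 0.05. The median change of the 32 was -0.01, as was the median over all probe sets. The arrays of the 2 groups did not overlap for 17 members, or 53.1%, against 43.1% of all probe sets. Over the marker lists named above that share ran from 20% (dendritic cell) to 66.7% (mast cell, with 0 calls). For non-overlap and unadjusted p the share over all genes was not computed. Whether an excess over all probe sets is particular to the members was therefore not tested. In the fit of only the 4 arrays compared 0 of the 32 were called, against 0.233% of all probe sets. At that share a count of 0 is no result about these genes. In 6 fits that each left out 1 array, which leave a group of 1 array, the changes of the 3 genes lay between 0.43 and 0.60.

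**Figure D1:**
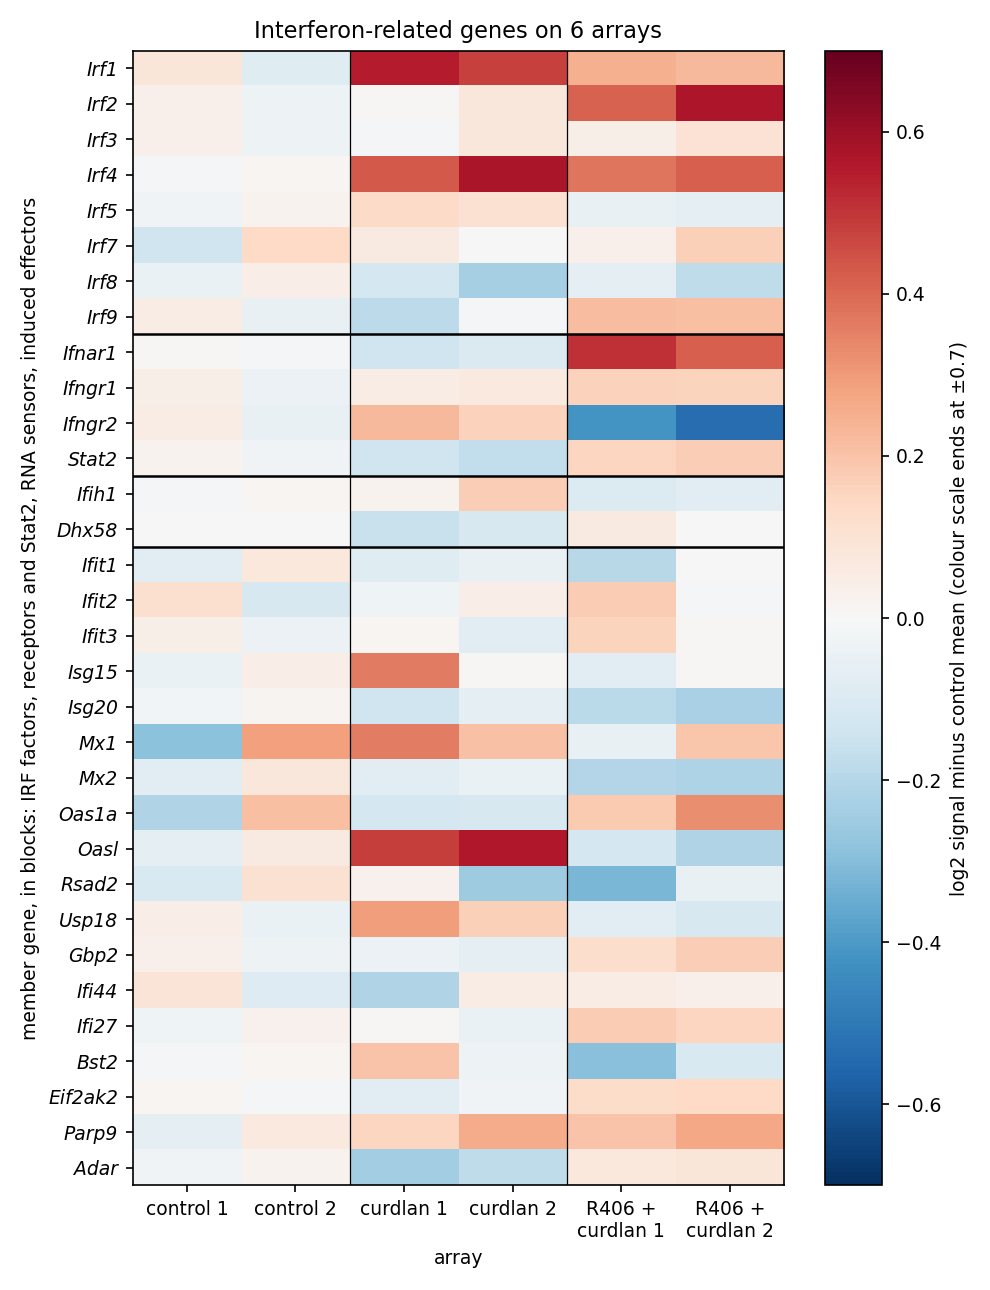
Log2 signal of each of the 32 measured genes on each of the 6 arrays (columns), minus the mean of the 2 control arrays of that gene, shown as colour. Rows are grouped by role. Irf1, Irf4 and Oasl are red on both curdlan arrays, Irf2 and Ifnar1 on both R406 plus curdlan arrays, and Ifngr2 is blue on both of the latter.

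Irf1 (probe set 10733553) encodes an activator of interferon-responsive and inflammatory genes. Its signals were 9.64 and 9.47 in control, 10.11 and 10.03 in curdlan and 9.80 and 9.78 in R406 plus curdlan arrays. Both curdlan arrays were the highest, both control arrays the lowest, and no groups overlapped. The rise with curdlan was 0.51 ± 0.0716 (SE, n = 2 arrays a group), a 1.43-fold change (limma adjusted p = 0.047). Under R406 the difference from curdlan was -0.28 ± 0.0716 (adjusted p = 0.0978), which missed the threshold. After centring each array on its median the curdlan change of Irf1 was 0.52 with an adjusted p of 0.0507, so the call sits at the threshold; over all alternatives its adjusted p ranged from 0.00373 to 0.184.

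Irf4 (probe set 10798175) encodes a lymphoid and myeloid IRF that cooperates with ETS and BATF factors. It had signals of 8.65 and 8.68 in control, 9.10 and 9.24 in curdlan and 9.04 and 9.09 in R406 plus curdlan arrays. The curdlan and the R406 plus curdlan arrays were adjacent, and all 4 lay above the controls. Curdlan raised it by 0.50 ± 0.0641, a 1.41-fold change (limma adjusted p = 0.0404, 0.00438 to 0.2 over the alternatives). Under R406 its difference from curdlan was -0.10 ± 0.0641 (adjusted p = 0.433), with a 95% interval from -0.26 to 0.06. Its level under R406 plus curdlan minus control was 0.40 ± 0.0641 (adjusted p = 0.0539), so under R406 it lay nearer to the curdlan than to the control arrays while just missing a call against control.

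Irf2 (probe set 10791640), which competes with Irf1 for the same elements and is chiefly a repressor, had another pattern. Its signals were 8.85 and 8.78 in control, 8.82 and 8.89 in curdlan and 9.23 and 9.38 in R406 plus curdlan arrays. Control and curdlan arrays overlapped, with a change of 0.04 ± 0.0703, and the R406 arrays lay above all of them. Irf2 was higher under R406 plus curdlan than with curdlan alone by 0.45 ± 0.0703 (limma adjusted p = 0.0283) and than control by 0.49 ± 0.0703 (adjusted p = 0.0432). Neither call passed in any fit that left out 1 array, where the adjusted p lay between 0.0643 and 0.144 against curdlan and between 0.0892 and 0.224 against control. Over all alternatives they ranged from 0.00417 to 0.144 and from 0.00525 to 0.224.

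The other 5 IRF genes were not called in any comparison. Irf5, which acts downstream of Toll-like receptors, had signals of 12.06 and 12.11 in control, 12.22 and 12.18 in curdlan and 12.03 and 12.02 in R406 plus curdlan arrays, so its curdlan arrays were the highest, but its changes were only 0.12 ± 0.0463 and -0.18 ± 0.0463. Irf9, the DNA-binding partner of Stat2, had signals of 9.29 and 9.19 in control, 9.06 and 9.23 in curdlan and 9.46 and 9.45 in R406 plus curdlan arrays. Its R406 arrays were the highest, and the difference from curdlan was 0.31 ± 0.0762 (limma adjusted p = 0.0869).

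Irf3, a constitutive relay of virus sensing, had signals of 10.92 and 10.85 in control, 10.87 and 10.96 in curdlan and 10.92 and 10.99 in R406 plus curdlan arrays. Irf7, which is itself interferon-induced, had signals of 6.73 and 7.01, 6.93 and 6.87, and 6.90 and 7.03 in the same order. For both genes the curdlan arrays overlapped those of each other group. Irf8, a myeloid lineage factor, had signals of 6.39 and 6.48 in control, 6.32 and 6.21 in curdlan and 6.38 and 6.26 in R406 plus curdlan arrays, with a curdlan change of -0.18 ± 0.0708 (limma adjusted p = 0.356).

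Under R406 plus curdlan, 4 members were higher than with curdlan alone (Irf2, Ifnar1, Stat2 and Adar) and 2 were lower (Ifngr2 and Oasl). These 6 are 18.8% of the 32. Of all probe sets 7.25% were called in this comparison (4.02% higher and 3.23% lower), and of all genes 9.18%. Of the 32 members, 17 had an unadjusted p under 0.05, against 22.0% of all probe sets. The median change of the 32 was 0.05 and that of all probe sets 0.00. The arrays of the groups did not overlap for 23 of 32 members, or 71.9%, against 53.3% of all probe sets. Over the marker lists that share ran from 50% (macrophage and neutrophil) to 66.7% (mast cell, with 0 calls). The comparison shares its curdlan arrays with that of curdlan and control.

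**Figure D2:**
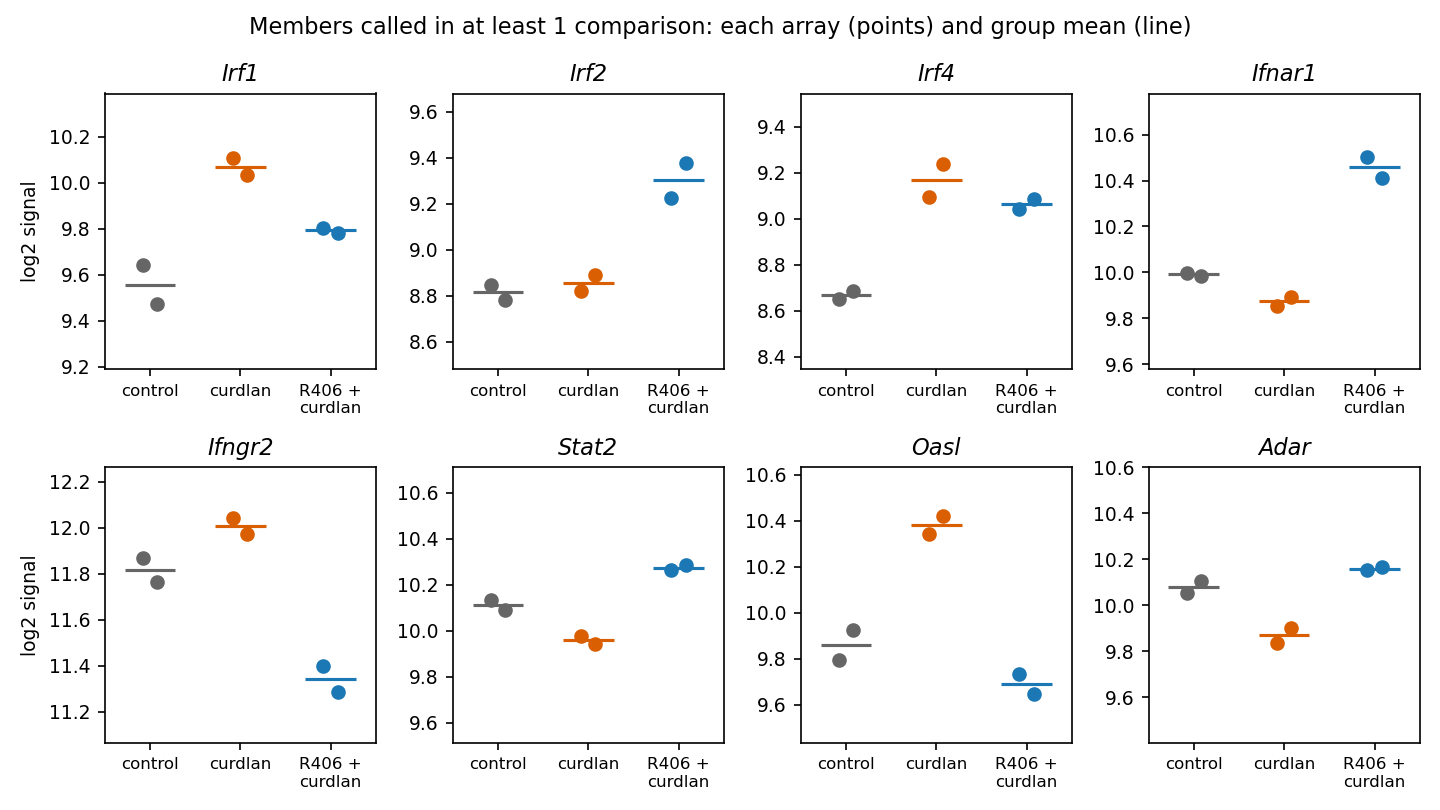
Log2 signal (vertical axis) of the 8 members called in at least 1 comparison, in control, curdlan and R406 plus curdlan cells. Points are the 2 arrays of a group and lines their mean, and all panels span the same 1.2 log2 units. Oasl is highest with curdlan, Ifnar1 and Irf2 are highest and Ifngr2 lowest under R406, and Irf4 is similar in curdlan and R406 plus curdlan arrays.

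Among the receptor chains, the 2 with the largest differences moved in opposite directions. Ifnar1 (probe set 10750200), the chain of the type I interferon receptor that associates with Tyk2, had signals of 10.00 and 9.99 in control, 9.85 and 9.89 in curdlan and 10.50 and 10.41 in R406 plus curdlan arrays. The R406 arrays were the highest and the curdlan arrays the lowest. Against curdlan it rose by 0.58 ± 0.0533, a 1.5-fold change (limma adjusted p = 0.00719), and against control by 0.46 ± 0.0533 (adjusted p = 0.0266).

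Ifngr2 (probe set 10750211), the signal-transducing chain of the interferon gamma receptor, had signals of 11.87 and 11.76 in control, 12.04 and 11.97 in curdlan and 11.40 and 11.28 in R406 plus curdlan arrays. Here the R406 arrays were the lowest and the curdlan arrays the highest. It fell by 0.67 ± 0.0681 on the log2 scale against curdlan, a 1.59-fold change (limma adjusted p = 0.00926), and by 0.48 ± 0.0681 against control (adjusted p = 0.0432). Its change with curdlan alone was 0.19 ± 0.0681 (adjusted p = 0.298). Ifngr1, the ligand-binding chain of the same receptor, had signals of 11.47 to 11.58 in control and curdlan arrays and of 11.67 in both R406 arrays, with a difference from curdlan of 0.10 ± 0.0494 (adjusted p = 0.313).

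The calls of Ifnar1 and Ifngr2 against curdlan both passed in the fit of only the 4 arrays compared. For this comparison a fit without 1 control array repeats that fit, since a single control array adds no spread, and is no further support. In the 6 fits without 1 array the change lay between 0.536 and 0.630 for Ifnar1. For Ifngr2 it lay between -0.725 and -0.612. The call of Ifnar1 was lost without curdlan array 1 or either R406 array, and that of Ifngr2 without any 1 of the 4 curdlan and R406 arrays. Over all alternatives their adjusted p ranged from 0.000191 to 0.0658 and from 0.000152 to 0.0765. Neither call against control passed in any fit without 1 array, where the adjusted p of Ifnar1 was 0.0696 to 0.171 and that of Ifngr2 0.0886 to 0.238 (from 0.00131 and from 0.00171 over all alternatives). In the RefSeq table Ifnar2, Il10rb, Ifnar1 and Ifngr2 are consecutive protein-coding genes on chromosome 11. Il10rb, a chain shared by the lambda interferon receptor, rose as Ifnar1 did. Its differences were 0.29 ± 0.0548 against curdlan (limma adjusted p = 0.046) and 0.42 ± 0.0548 against control (adjusted p = 0.0354). Ifngr2, next to Ifnar1 in that order, fell. Both calls of Il10rb were lost in each fit without 1 array, at adjusted p of 0.0718 to 0.222 and of 0.0779 to 0.209 (from 0.00361 and from 0.00125 over all alternatives).

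Stat2 (probe set 10893067), the STAT of the type I interferon complex, had signals of 10.13 and 10.09 in control, 9.98 and 9.94 in curdlan and 10.26 and 10.28 in R406 plus curdlan arrays. The 3 groups did not overlap, with curdlan lowest and R406 plus curdlan highest. It was higher under R406 than with curdlan alone by 0.32 ± 0.0465 (limma adjusted p = 0.0232, 0.00223 to 0.165 over the alternatives), and its change with curdlan was -0.15 ± 0.0465 (adjusted p = 0.229). Without each array in turn the R406 difference did not pass, at adjusted p of 0.0507 to 0.165.

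Of the 18 measured effector genes, Oasl alone was called with curdlan, and Oasl and Adar were called under R406. The latter 2 are 11.1% of the effectors, a share near the 9.18% of all genes called in that comparison. Oasl (probe set 10762740) encodes an oligoadenylate synthetase-like protein, and its family members may share probes. Its signals were 9.80 and 9.92 in control, 10.34 and 10.42 in curdlan and 9.73 and 9.65 in R406 plus curdlan arrays. The curdlan arrays stood above all others, and the R406 arrays were slightly below the controls.

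Oasl rose with curdlan by 0.52 ± 0.0687, a 1.44-fold change (limma adjusted p = 0.0424). It fell under R406 relative to curdlan by 0.69 ± 0.0687, which is 1.62-fold (adjusted p = 0.0087), and stood at -0.17 ± 0.0687 against control (adjusted p = 0.258). The curdlan call was lost in each of the 6 fits without 1 array, at adjusted p of 0.124 to 0.196 (0.00265 to 0.196 over all alternatives). The R406 call was lost without curdlan array 2 or either R406 array and passed in the other 3 such fits, at 0.0239 to 0.0783 (0.000266 to 0.0783 over all alternatives). Oas1a, an oligoadenylate synthetase of the same family, had signals of 5.23 and 5.65 in control, 5.32 and 5.33 in curdlan and 5.62 and 5.76 in R406 plus curdlan arrays, with a control array at either end of the curdlan values, and its changes of -0.12 ± 0.144 and 0.37 ± 0.144 did not pass.

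Adar (probe set 10816834), an enzyme that edits adenosines in double-stranded RNA, had signals of 10.06 and 10.10 in control, 9.84 and 9.90 in curdlan and 10.15 and 10.17 in R406 plus curdlan arrays. As for Stat2, curdlan arrays were the lowest and R406 arrays the highest. The difference under R406 was 0.29 ± 0.0495 (limma adjusted p = 0.0341, 0.00459 to 0.199 over the alternatives), and the change with curdlan was -0.21 ± 0.0495 (adjusted p = 0.147). Without each array in turn the R406 difference had an adjusted p of 0.0676 to 0.199.

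**Figure D3:**
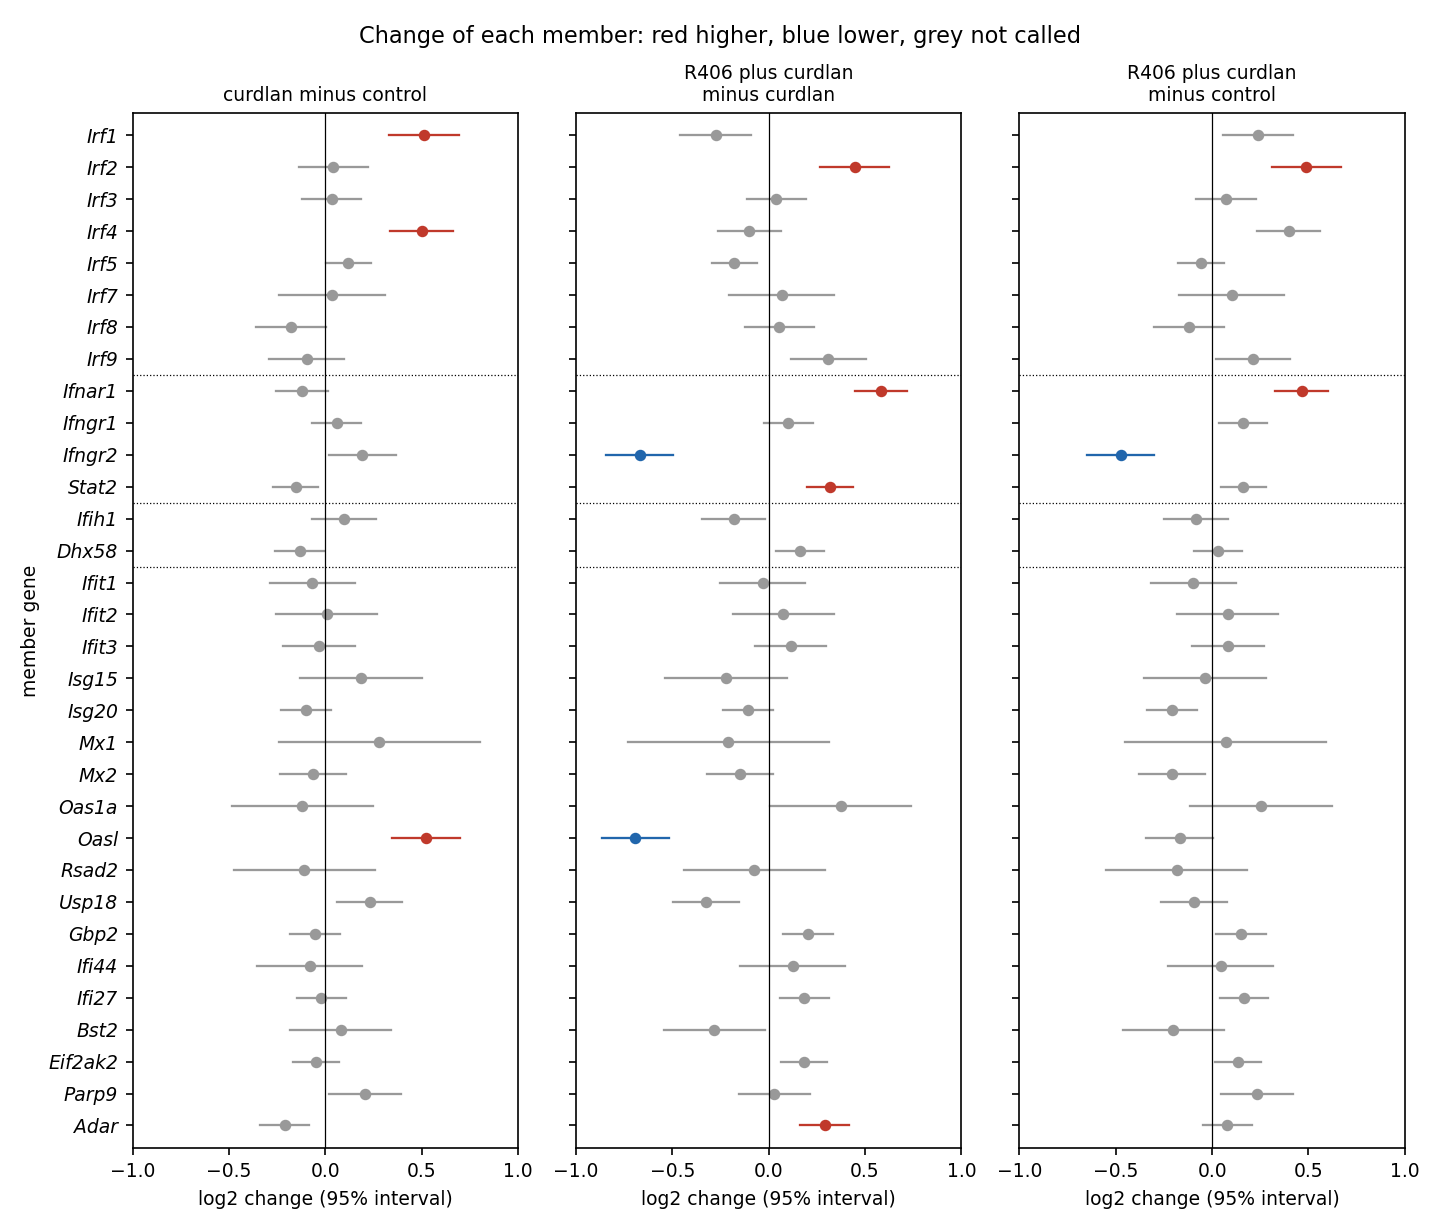
Change of each of the 32 members in the 3 comparisons, in log2 units, with the 95% interval of the limma fit as a line. Red points were called higher, blue lower and grey not called. With curdlan 3 points are red, under R406 plus curdlan against curdlan 4 are red and 2 blue, and against control 2 are red and 1 blue. The wide intervals of Mx1, Oas1a and Rsad2 belong to dim probe sets.

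Several effectors often used to detect an interferon response were not called. The 95% interval of the curdlan change spanned 0 for Ifit1, Ifit2, Ifit3, Isg15, Rsad2, Mx1 and Mx2. It did not for 4 of the 18 effectors: Oasl (0.35 to 0.70), Usp18 (0.06 to 0.40), Parp9 (0.02 to 0.39) and Adar (-0.34 to -0.08). Of these only Oasl was called with curdlan. Those named from here to the RNA sensors were picked out with their values known. Ifit1, Ifit2 and Ifit3, which bind foreign RNA, had curdlan changes of -0.07, 0.01 and -0.03, and the upper ends of their 95% intervals were 0.15, 0.27 and 0.15. Isg15, a ubiquitin-like modifier, had signals of 6.97 and 7.06 in control, 7.38 and 7.02 in curdlan and 6.93 and 7.02 in R406 plus curdlan arrays, so 1 curdlan array was high and the other was not. Rsad2, which makes an antiviral nucleotide, had a curdlan change of -0.11 with an interval from -0.48 to 0.26. Mx1, an antiviral GTPase, had control signals of 4.56 and 5.14, and its interval for curdlan, from -0.24 to 0.80, was the widest of all members. Its paralog Mx2 was at -0.06, from -0.23 to 0.11.

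A rise with curdlan of 2-fold or more therefore lay outside the unadjusted 95% interval of each of the 32 genes, since the highest upper bound was 0.80 log2 units. No member changed by 2-fold in any comparison, and the largest change was the 1.62-fold difference of Oasl. At least 2-fold changes were seen in 0.291% of all probe sets with curdlan, in 0.678% under R406 against curdlan and in 0.308% under R406 against control. Of the 18 effectors, 10 had mean signals below the median probe set, as did 2 of the 8 IRF genes and none of the 4 receptor and STAT genes. No detection call was used here, so a change of a transcript near background may be understated.

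The remaining effectors had differences under R406 that did not pass. Usp18, a protease that removes Isg15 and restrains the type I receptor, had signals of 11.61 and 11.52 in control, 11.86 and 11.73 in curdlan and 11.49 and 11.45 in R406 plus curdlan arrays. It resembled Oasl in having the highest values with curdlan, but its changes of 0.23 ± 0.0665 and -0.33 ± 0.0665 had limma adjusted p of 0.212 and 0.0545. Gbp2, a guanylate-binding GTPase, Ifi27 and Eif2ak2, the RNA-activated kinase PKR, were at 0.20 ± 0.0508, 0.19 ± 0.0493 and 0.18 ± 0.0466 under R406 against curdlan, with adjusted p of 0.089 to 0.103. Their curdlan changes were between -0.05 and -0.02. Isg20, Ifi44, Bst2 and Parp9 had R406 differences of -0.11, 0.12, -0.28 and 0.03.

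Both RNA sensors were measured and neither was called (limma; 1 of 2 had an unadjusted p under 0.05 with curdlan and 2 of 2 under R406). Of all genes 10.0% were called in at least 1 comparison, so the lack of a call is no result about 2 genes. Ifih1, the sensor MDA5, had a curdlan change of 0.10 ± 0.0647 and an R406 difference of -0.18 ± 0.0647. Dhx58, which modulates that sensor, had changes of -0.13 ± 0.0489 and 0.16 ± 0.0489, the opposite order.

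Against unstimulated control, R406 plus curdlan cells had 2 members higher (Irf2 and Ifnar1) and 1 lower (Ifngr2). These 3 are 9.38% of the 32. Of all probe sets 2.23% were called (1.44% higher and 0.791% lower), and of all genes 3.02%. The arrays of the 2 groups did not overlap for 22 members, or 68.8%, against 53.5% of all probe sets. Over the marker lists that share ran from 16.7% (macrophage and neutrophil) to 80% (mast cell and dendritic cell, with 0 calls). Of the members, 14 had an unadjusted limma p under 0.05, against 20.4% of all probe sets. The comparison shares its R406 arrays with that against curdlan, and its control arrays with that of curdlan and control. Of the 3 genes raised by curdlan, Oasl was at -0.17, Irf1 at 0.24 and Irf4 at 0.40 relative to control. The median over the 32 was 0.08 and over all probe sets -0.01. In the fit of only the 4 arrays compared 0 members were called, against 0.623% of all probe sets. In fits that left out each array in turn, the change was 0.41 to 0.56 for Irf2, 0.42 to 0.51 for Ifnar1 and -0.53 to -0.42 for Ifngr2.

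The sequences shown above can be set beside these changes. An ISRE core lay before the start of 11 measured genes: Irf7, Ifih1, Ifit3, Isg20, Oas1a, Rsad2, Gbp2, Ifi44, Ifi27, Bst2 and Eif2ak2. In the fit reported here 0 of them were called in any comparison (limma; 0, 6 and 4 had an unadjusted p under 0.05), against 10.0% of all genes and 7.96% of all probe sets called in at least 1. Of all probe sets 14.4%, 22.0% and 20.4% had such an unadjusted p in the 3 comparisons. The curdlan changes of these 11 genes lay between -0.12 and 0.10, and their R406 differences from curdlan between -0.28 and 0.37. That count of 0 depended on the setting: Gbp2 and Eif2ak2 were called among probe sets with 1 gene symbol, with the mean of a gene's probe sets and with a signal trend in the prior, where Isg20 was called too. Among probe sets above the median signal these 3 and Ifi27 were called, 4 of the 5 that were left to test. Of the 13 measured genes with a window and no ISRE core, 6 were called in at least 1 comparison (Irf1, Irf4, Ifnar1, Ifngr2, Stat2 and Oasl), and 8 or 9 under the same 4 alternatives (8 of 11 tested above the median). Signals below the median probe set were found in 6 of the 11 and in 2 of the 13, and the part of signal in these counts was not tested. The 4 genes with an NF-kB match were too few to set against those shares, and 3 of them, Irf1, Ifngr2 and Oasl, were called. Irf4 held none of the 4 motifs marked in capitals and an NFAT core, a motif present in most windows. These counts describe letters in short windows and were not tested.

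Other genes of the pathway were taken from 6 lists, in which 77 of 102 genes were measured. With curdlan 2 of the 77 rose and 0 fell, and under R406 against curdlan 2 rose and 5 fell. These are 2.60% and 9.09% called, near the 2.13% and 9.18% of all genes (1.59% and 7.25% of all probe sets). The numbers called are thus no result about these lists. Of 5 measured interferon ligand genes (Ifna4, Ifna5, Ifnb1, Ifng and Ifnk) 0 were called in any comparison (limma; 0 had an unadjusted p under 0.05 in each). Of all genes 10.0% were called in at least 1 comparison, so a count of 0 among 5 is no result about the ligands. The curdlan changes of the 5 lay between -0.22 and 0.01, and 4 of the 5 had signals below the median probe set. The rat Ifna genes are near-identical, so their probe sets are uncertain.

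Both risers with curdlan were suppressors of cytokine signalling. Socs1, which inhibits JAK kinases at interferon receptors, had signals of 11.20 and 11.00 in control, 12.60 and 12.52 in curdlan and 9.34 and 9.31 in R406 plus curdlan arrays. Socs3, a related inhibitor, had signals of 7.59 and 7.74 in control, 8.28 and 8.38 in curdlan and 7.24 and 7.29 in R406 plus curdlan arrays. In both genes curdlan arrays were highest and R406 arrays lowest. Their R406 differences from curdlan were -3.24 ± 0.0782 and -1.06 ± 0.0722 (limma adjusted p = 0.000236 and 0.00352). Both were larger in size than that of any measured member, where the largest was -0.69 (Oasl). Socs1 was also lower than control, at -1.77 ± 0.0782 (adjusted p = 0.00356). In the same list Stat3 fell by 0.23 ± 0.044 under R406 (adjusted p = 0.044). Both R406 calls against curdlan of Socs1 and Socs3 passed in all 6 fits without 1 array, though those without a control array repeat 1 fit. The curdlan rise of Socs1, 1.46 ± 0.0782 (adjusted p = 0.00491), was lost without either curdlan array (up to 0.0554) and its call against control without either R406 array (up to 0.0773), whereas those of Socs3 with curdlan, 0.66 ± 0.0722 (adjusted p = 0.0294), and of Stat3 passed in none, at 0.106 to 0.165 and 0.0781 to 0.24.

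Among 30 other interferon-stimulated genes 0 were called with curdlan (limma; 10 had an unadjusted p under 0.05) and 3 under R406 against curdlan. Those 3 are 10.0% of the list, near the 9.18% of all genes called there, so their number is no result about the list. With curdlan 2.13% of all genes were called, and 14.4% of all probe sets had an unadjusted limma p under 0.05. The chemokine gene Cxcl10 fell by 0.58 ± 0.0658 against curdlan (limma adjusted p = 0.0121) and the immunity-related GTPase gene Ifi47 by 0.43 ± 0.0461 (adjusted p = 0.0101). Gbp5, a guanylate-binding protein gene, rose by 0.41 ± 0.0516 (adjusted p = 0.0157). Each of the 3 calls was lost without any 1 of the 4 curdlan and R406 arrays, at adjusted p of up to 0.0948 for Cxcl10, 0.0956 for Ifi47 and 0.119 for Gbp5. None of the 3 had an adjusted p under 0.0558 against control.

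Of 12 measured genes of nucleic acid sensing, 11 of interferon gamma signalling and antigen presentation, and 8 IRF partner factors, 0 were called in any comparison. Of all genes 10.0% were called in at least 1, so in lists this small a count of 0 is no result about a list. With limma, 2 genes of each list had an unadjusted p under 0.05 with curdlan, and 5, 2 and 2 had one under R406 against curdlan. Against control those counts were 2, 2 and 3. Of all probe sets 14.4%, 22.0% and 20.4% had such an unadjusted p in the 3 comparisons.

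**Figure D4:**
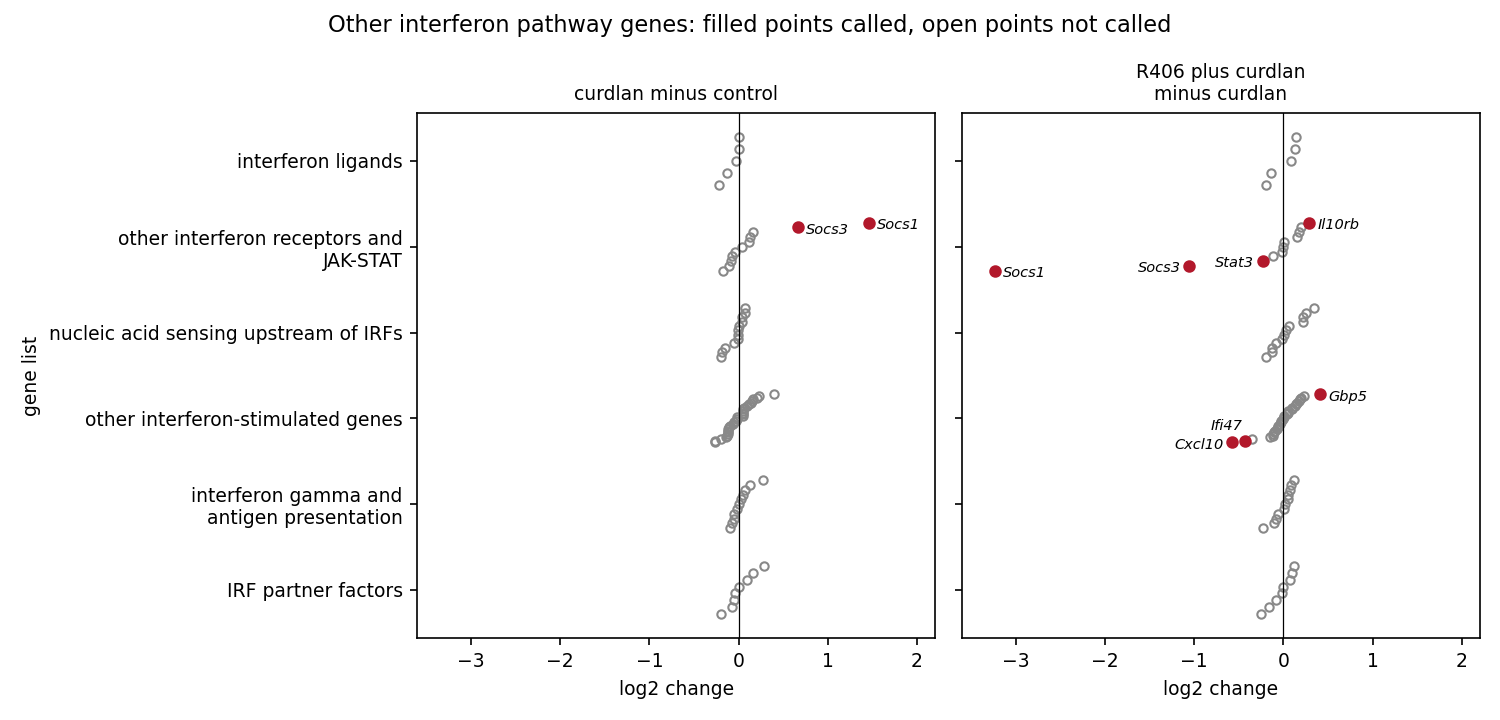
Change in log2 units (horizontal axis) of each of 77 other pathway genes, by list (vertical axis), with curdlan and under R406 plus curdlan against curdlan. Filled, named points were called and open points were not. Socs1 and Socs3 stand apart in both panels, at 1.46 and 0.66 and at -3.24 and -1.06, while all ligand and sensing genes lie between -0.22 and 0.08 with curdlan and between -0.20 and 0.34 under R406.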

How the data were processed

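Total RNA was prepared as biotinylated cDNA with the GeneChip WT labelling reagents, per the labels' protocols. Each deposited value is a log2 signal of 1 probe set on 1 array, which the authors made in Affymetrix Expression Console (submitters' processing notes). The sources used here do not name its version, background correction, between-array method or genome build, and the log base was inferred from maxima of 14.37 to 14.41. The number of arrays limits precision. Of 29214 probe sets, 15310 had a single gene symbol in the platform annotation, 323 several and 13581 none, and 0 columns belonged to other samples.

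All 6 arrays entered 1 limma model with 3 groups (R 4.3.3, limma 3.58.1; 3 residual and 2.16 prior degrees of freedom), with no filter or added normalization. The script was tested on simulated data. By rule, array values were given for called members and all IRF genes, other members by role with the largest change of a role as example, and up to 6 called genes per other list; further members named with values were chosen after their values were seen. Rig1 was counted as Ddx58 through its gene ID. Promoter windows came from RefSeq, assembly GRCr8. Alternatives were other scalings, filters, priors, thresholds and array subsets, and a block for the replicate number in the titles. Members, lists and tests were chosen with earlier results of these data known.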

Additional observations from a re-analysis of the deposited data

How the results depend on the processing

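No called change of a member or other pathway gene changed direction under any alternative run. Most alternatives leave the change itself as it is, and the arrays compared overlapped for no called change. Leaving out 1 array could therefore not reverse a sign, so the direction was hardly put to a test. With curdlan 3 members were called. The count was 5 with a signal trend in the prior (15.6% of members, 5.33% of all probe sets). It was 0 in the fit of the 4 arrays compared (0.233% of all probe sets) and at an adjusted p under 0.01 (0.267%). Under R406 against curdlan 6 were called; it was 14 of the 20 members tested above the median signal (25.4% of all such probe sets were called), 11 among probe sets with 1 gene symbol (13.5% of all) and with the mean of a gene's probe sets (13.7%), 12 with the trend (12.9%), and 3 in the fit of 4 arrays (4.22%) and at an adjusted p under 0.01 (1.92%). Under R406 against control 3 were called, and the count was 7 of 20 above the median (15.6%) and 6 with the trend (8.01%). It was 0 in the fit of 4 arrays (0.623%) and at an adjusted p under 0.01 (0.226%). Fits without each array in turn leave 1 array in a group, and no count of called members is given for them here. Same-numbered arrays deviated from their group means with correlations of -0.11, -0.00454 and 0.11, so the numbers were not taken as pairs. With the number as a replicate block the counts were 0, 3 and 0 in the order above (0.349%, 3.86% and 0.212% of all probe sets). With the control numbers crossed, a block chosen after seeing the data, they were 0, 4 and 0 (0.479%, 4.63% and 0.719%).

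For the other pathway genes, 2, 7 and 2 of 77 were called in the same order (2.60%, 9.09% and 2.60%, against 2.13%, 9.18% and 3.02% of all genes). Above the median, where 53 were tested, these were 7, 15 and 8 (13.2%, 28.3% and 15.1%, against 10.8%, 25.4% and 15.6% of all such probe sets). With the trend they were 7, 14 and 11 (9.09%, 18.2% and 14.3%, against 5.33%, 12.9% and 8.01%), among probe sets with 1 symbol 3, 12 and 7 (3.90%, 15.6% and 9.09%, against 4.36%, 13.5% and 7.12%), and with the mean of probe sets 4, 12 and 7 (against 4.48%, 13.7% and 7.33%). In the fit of 4 arrays they were 1, 5 and 1 (against 0.233%, 4.22% and 0.623% of all probe sets). With the block they were 1, 6 and 1 (against 0.349%, 3.86% and 0.212%). With the crossed block they were 1, 5 and 1 (against 0.479%, 4.63% and 0.719%). At an adjusted p under 0.01 they were 1, 2 and 1 (against 0.267%, 1.92% and 0.226%). Quantile normalization and median centring left all 6 counts within 1.5 times. Filters leave fewer probe sets to adjust over, and smaller fits fewer degrees of freedom; the cause was not tested otherwise. Signals near background limit what dim members can show.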
